A study of Mus musculus with 24 samples.

Results

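The gate change, meaning the expression of p27K high cells relative to p27K negative cells of the same tumour, was compared between 4T07 and EMT6 tumours. Both are mouse mammary carcinoma lines. For each gene the quantity reported is the log2 change between gates in 4T07 minus the log2 change between gates in EMT6, so a positive difference means that the gene moved further upward, or less far downward, in p27K high cells of 4T07. Of the 24 libraries of the series, 16 entered the comparison, from 4 tumours of each line. The members were the 24034 gene symbols present in the count tables of both lines, matched regardless of case, of which 13355 had counts high enough to be tested.

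Tumour cells of both lines expressed mCherry and mVenus-p27K. This reporter is a fluorescent fusion to a mutant of the cell cycle inhibitor p27 and accumulates in resting cells. The first population sorted from each tumour was p27K high, which the labels call QCC, and its partner was p27K negative, which they call proliferative. In female Balb/cJ mice 250000 cells were placed in the mammary fat pad, and 14 days passed before the tumours were taken. The gate was set by the reporter, and no separate clones or transductions of a line are named in the labels. The tumours of EMT6 are numbered 0, 1, 2 and 4 here, as in the count table, which are not the numbers of the labels. Cells were stained for CD45, the common leukocyte antigen, before sorting, but whether CD45 positive cells were gated out is not given in the sources used here. Each line was sequenced in its own run, so line and run cannot be told apart in the difference. The count tables also differed in size, with 24982 entries for 4T07 and 49316 for EMT6, so any difference in annotation cannot be told apart either.

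Quiescent cells have left the cell cycle reversibly. In that state the DREAM complex, built on the retinoblastoma family, silences the genes of replication and mitosis, many of which carry a cell cycle genes homology region in their promoters. Resting tumour cells are also known for changed metabolism, among it hypoxia signalling through HIF, antioxidant defence through the transcription factor NRF2 and sterol synthesis through SREBP2.

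The p27K high libraries of 4T07 held 27887221 to 45460880 counts on named symbols and the negative ones 28961831 to 35197694, against 13769682 to 20142013 and 16988365 to 17508301 in EMT6. The shared symbols held 97.5% to 99.3% of these counts. The p27K high library of 4T07 tumour 2 stood apart, with 13267 shared symbols detected against 14789 to 15059 in the other p27K high libraries of 4T07. Over 9246 genes with a mean of at least 5 CPM, the TMM-scaled read count used throughout, in each line, the median SD of the gate change between tumours was 0.204 log2 units in 4T07 and 0.122 in EMT6. Without 4T07 tumour 2 it was 0.106 in 4T07. Among tumour cell markers, Vim, an intermediate filament of mesenchymal cells, stood at 3250 to 4240 CPM in 4T07 and 4710 to 6290 CPM in EMT6 libraries, and the simple epithelial keratin gene Krt8 at 199 to 386 and 560 to 949 CPM. The epithelial adhesion gene Epcam did not exceed 1.42 CPM in 4T07 or 3.00 CPM in EMT6.

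At a Benjamini-Hochberg adjusted p under 0.05 in edgeR's quasi-likelihood test with the tumour as a block, the difference was called for 2527 genes, 18.9% of those tested. It was positive for 1429 (10.7%) and negative for 1098 (8.22%). Past 2-fold, the direction was uneven, with 81 genes higher and 515 lower in 4T07. The share of positive calls depended on scaling: it was 56.5% with TMM, 43.3% with DESeq2 size factors and 23.5% with plain library totals, which moved the median difference of all genes by -0.167. The 4 per-tumour changes of one line all lay above the 4 of the other for 4305 genes, 32.2% of those tested, among them 2362 of the 2527 called. Calls of the difference rose to 3730 without 4T07 tumour 2 and fell to 1663 without 4T07 tumour 1, and to 1411, 1286 and 1526 without EMT6 tumours 1, 2 and 4.

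Within the lines, 3699 genes rose and 3356 fell in p27K high cells of 4T07 (27.7% and 25.1% of those tested), against 2158 and 2329 in EMT6 (16.2% and 17.4%). With 4T07 tumour 2 left out of the shared fit, the 4487 calls of EMT6 became 6435. Both lines called 2956 genes in the same direction. For 537 of these, 18.2% against 18.9% of all genes, the size of the change differed. Across all tested genes the changes of the lines had a Pearson correlation of 0.599, and across the 9246 genes with at least 5 CPM in each line it was 0.894. Leaving out the cell cycle lists gave 0.845 over 9136 genes. These correlations run over genes of the same 16 libraries and are descriptions only.

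**Figure D1:**
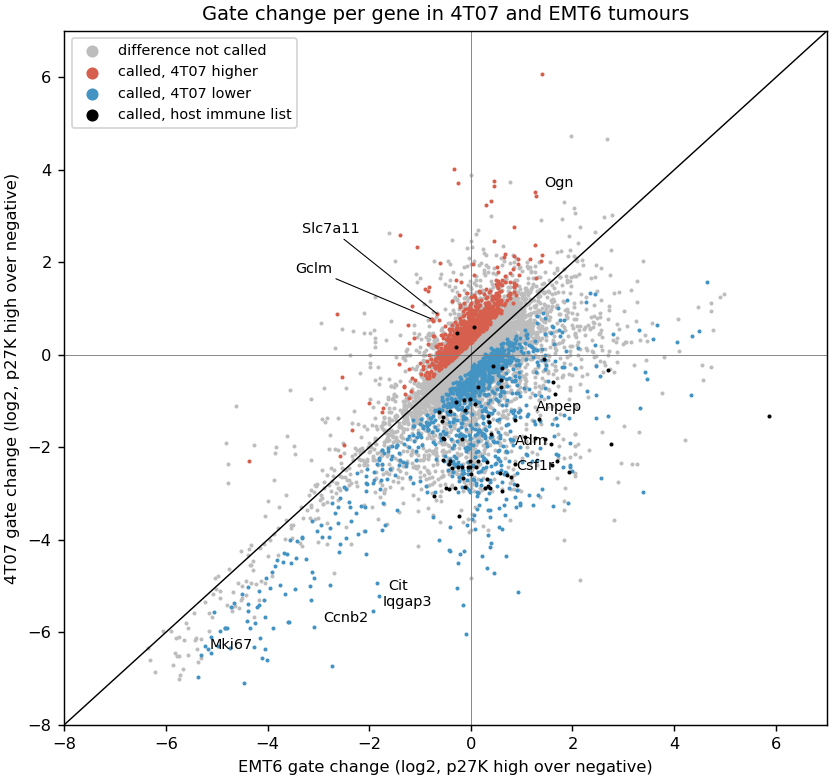
Gate change of each tested gene in 4T07 (y axis) against EMT6 (x axis), both as log2 of p27K high over negative, with the line of equality. Red and blue points are called differences, black points called members of the host immune lists. Genes near the lower left, such as Mki67 and Ccnb2, fell in both lines and fell further in 4T07.

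Host immune transcripts were set apart because most of them were low in EMT6. Of 308 symbols on 8 lists of leukocyte genes, 297 were in both tables and 220 were tested. Their mean level was lower in EMT6 for 197 of the 220, and 154 averaged under 1 CPM in EMT6, against 26 in 4T07. Most of them were therefore tested through their level in 4T07, so the 68 called differences (30.9%, beside 18.9% of all genes), 65 of them lower in 4T07, are given as a count from which nothing is read. Without the 220 host immune genes 2459 of 13135 genes were called (18.7%), 1426 higher and 1033 lower. Of the 1426, 806 rose in 4T07 while EMT6 was not called, 240 fell in EMT6 while 4T07 was not called, 214 rose in both and 99 rose in 4T07 and fell in EMT6. Of the 1033, 469 fell in 4T07 while EMT6 was not called, 232 fell in both, 189 rose in EMT6 while 4T07 was not called and 91 fell in 4T07 and rose in EMT6.

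The gate was checked on a gene of the arrest and a gene of proliferation. Cdkn1b, which encodes p27 itself and whose counts may include transcripts of the p27K reporter, had 409, 564, 423 and 328 CPM in the p27K high libraries of 4T07 and 216, 232, 250.2 and 196 CPM in the negative ones, against 354, 316, 304 and 366 CPM in the p27K high libraries of EMT6 and 242, 225, 212 and 237 CPM in the negative ones. The p27K high libraries lay above the negative ones in both lines, by 0.93 ± 0.09 log2 units in 4T07 and 0.55 ± 0.09 in EMT6. Here and below the SE comes from the fit of all 16 libraries, which share 1 estimate of the spread. It is not the spread over the tumours of 1 line. Per tumour the changes of Cdkn1b were 0.92, 1.28, 0.76 and 0.74 in 4T07 and 0.55, 0.49, 0.52 and 0.63 in EMT6. The difference of 0.38 ± 0.12 narrowly missed the threshold (adjusted p = 0.0506, from 0.0208 to 0.214 over the alternatives), although the 4 changes in 4T07 all exceeded the 4 in EMT6. Mki67, the gene of the proliferation antigen Ki-67, had 10.3, 25.3, 19.4 and 26 CPM in the p27K high libraries of 4T07 and 1484, 2033, 1742 and 1654 CPM in the negative ones, against 15, 11.1, 13 and 13.9 CPM in the p27K high libraries of EMT6 and 497, 574, 473 and 559 CPM in the negative ones. All p27K high libraries stood far below all negative ones, in 8 of 8 tumours. The change was -6.49 ± 0.19 in 4T07 and -5.31 ± 0.19 in EMT6, a difference of -1.18 ± 0.23 (adjusted p = 0.00681).

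Genes of mitosis fell in both lines, and 32 of 60 fell further in 4T07. All 60 tested members of the G2/M and mitosis list fell in both lines, with a median change of -5.90 in 4T07 and -4.84 in EMT6. The difference was called lower in 4T07 for 32 of the 60 and higher for none, against 8.22% lower and 10.7% higher among all genes, with a median of -0.84 against -0.001 over all genes. Over tumours the list median ran from -5.92 to -5.22 in 4T07 and from -4.84 to -4.35 in EMT6, without overlap. The count of 32 was 25, 36, 29 and 38 without 4T07 tumours 1 to 4, and 27, 27, 26 and 27 without EMT6 tumours 0, 1, 2 and 4.

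Bub1, a kinase of the spindle checkpoint, had 2.08, 3.36, 3.22 and 4.81 CPM in the p27K high libraries of 4T07 and 168, 277, 235 and 244 CPM in the negative ones, against 6.55, 8.29, 10.3 and 9.78 CPM in the p27K high libraries of EMT6 and 122, 164, 169 and 167 CPM in the negative ones. The p27K high libraries of 4T07 were the lowest of the 4 groups, although its negative libraries were nearly all above those of EMT6. The difference was -1.96 ± 0.16 (adjusted p = 7.79e-05). Kif4, a chromosome-bound kinesin, had 1.33, 1.46, 1.43 and 1.6 CPM in the p27K high libraries of 4T07 and 112, 147, 119.5 and 105 CPM in the negative ones, against 6.02, 3.92, 5.75 and 7.63 CPM in the p27K high libraries of EMT6 and 85.5, 97.3, 97.3 and 106 CPM in the negative ones. Again the lowest values were the 4 p27K high libraries of 4T07, giving a difference of -2.30 ± 0.20 (adjusted p = 0.000113). Kif20a, a kinesin of cytokinesis, differed by -1.55 ± 0.15.

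Single genes with the lowest differences outside the immune lists, among those with at least 5 CPM in each line and no overlap between lines, follow. Iqgap3 (chromosome 3, 88081971 to 88121048, plus strand on GRCm38), a scaffold protein of proliferating cells, had 4.27, 2.27, 6.66 and 5.34 CPM in the p27K high libraries of 4T07 and 223, 211, 223 and 190.4 CPM in the negative ones, against 23.7, 22.3, 21.4 and 23.8 CPM in the p27K high libraries of EMT6 and 89.4, 92.2, 76.4 and 87.6 CPM in the negative ones. The negative libraries were higher in 4T07 than in EMT6 and the p27K high libraries lower, both without overlap. The changes were -5.55 ± 0.19 and -1.92 ± 0.17, a difference of -3.63 ± 0.24 (adjusted p = 2.32e-05). Cit, which encodes citron kinase of the cytokinetic midbody (chromosome 5, 115845278 to 116008947, plus strand), had 2.22, 3.28, 2.63 and 2.16 CPM in the p27K high libraries of 4T07 and 103, 93.5, 95 and 84.1 CPM in the negative ones, against 20.7, 27.5, 19.8 and 25.8 CPM in the p27K high libraries of EMT6 and 77.1, 88.3, 72.3 and 86.8 CPM in the negative ones. Its negative libraries overlapped between lines, whereas its p27K high libraries did not, and the difference was -3.41 ± 0.14 (adjusted p = 1.26e-06). Ccnb2, a mitotic cyclin, had 1.88, 1.62, 3.18 and 3.14 CPM in the p27K high libraries of 4T07 and 142, 163, 145 and 132 CPM in the negative ones, against 8.02, 13.3, 13.9 and 17.5 CPM in the p27K high libraries of EMT6 and 119, 114, 98.7 and 108 CPM in the negative ones. The difference was -2.82 ± 0.31 (adjusted p = 0.000388).

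Further low differences came from Bard1, the partner of BRCA1 (-3.10), Pif1, a DNA helicase (-2.63), Pclaf, a PCNA clamp factor (-2.57), and Spc24, a kinetochore subunit (-2.46). All fell in both lines. Pif1 and Pclaf were near 0 in p27K high cells of 4T07, at 0 to 0.295 and 0.0405 to 2.36 CPM, so their fold changes rest on few counts there. Arhgap33, a GTPase-activating protein, fell in 4T07 (-2.72) and was not called in EMT6 (-0.23), with a difference of -2.49 that was lost without EMT6 tumour 2 (adjusted p = 0.0567).

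Promoter windows of 250 bases before to 50 after the start site were taken from RefSeq (GRCm38.p6). The cell cycle genes homology region, searched as TTTGAA on both strands, was present in 37 of the 48 mitosis list members with a window (77.1%), against 14.4% of 10412 tested genes. It was in 18 of the 25 such members that fell further in 4T07, a share not above that of the whole list. The 80 bases before the start site of 3 members are shown because they place the motif next to the start, with the motif in capitals and on the opposite strand in Ube2c. Ube2c encodes a ubiquitin-conjugating enzyme of the anaphase-promoting complex, Ncapg a condensin subunit and Cdc20 the activator of that complex.
Ube2c, chr2:164769849-164769928, plus strand: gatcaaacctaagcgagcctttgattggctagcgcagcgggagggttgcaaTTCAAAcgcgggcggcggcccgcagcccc
Ncapg, chr5:45669845-45669924, plus strand: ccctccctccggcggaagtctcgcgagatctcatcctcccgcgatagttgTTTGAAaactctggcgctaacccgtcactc
Cdc20, chr4:118437344-118437423, minus strand: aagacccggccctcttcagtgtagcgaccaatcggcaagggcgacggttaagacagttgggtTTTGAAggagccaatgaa

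Replication genes fell in both lines, and 23 of 50 fell further in 4T07. All 50 tested members of the G1/S and replication list fell in both lines, with a median change of -2.80 in 4T07 and -2.26 in EMT6. The difference was called lower for 23 and higher for 1 (8.22% and 10.7% of all genes), the polymerase gene Pola1 (0.39), which was not called with DESeq2 size factors or library totals. The median was -0.47. The count of 23 fell to 13 without 4T07 tumour 1 and to 11, 14 and 12 without EMT6 tumours 1, 2 and 4. Tk1, the thymidine kinase of the salvage pathway, had 3.16, 2.43, 5.56 and 5.14 CPM in the p27K high libraries of 4T07 and 80.5, 71.6, 90.7 and 71.4 CPM in the negative ones, against 17.2, 24.9, 22.8 and 20.4 CPM in the p27K high libraries of EMT6 and 93, 86.5, 83.1 and 91.5 CPM in the negative ones. The negative libraries overlapped between lines, and the p27K high libraries of 4T07 were all below those of EMT6, by a difference in change of -2.25 ± 0.23 (adjusted p = 0.000278). Ccne1, cyclin E1 of the G1 to S transition, had 2.53, 1.74, 2.52 and 3.44 CPM in the p27K high libraries of 4T07 and 27.3, 34.2, 32.6 and 37.7 CPM in the negative ones, against 9.16, 10.6, 9.81 and 9.84 CPM in the p27K high libraries of EMT6 and 33.5, 31.1, 35.1 and 27.8 CPM in the negative ones, and differed by -1.99 ± 0.20 (adjusted p = 0.000239). E2f8, a repressor E2F, differed by -1.63 ± 0.18, having fallen by 2.77 in 4T07 and 1.13 in EMT6.

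Among 33 tested genes of quiescence and CDK inhibition the picture was mixed, with 6 higher and 4 lower (10.7% and 8.22% of all genes) and a median difference of 0.04. With DESeq2 size factors the counts were 2 and 4. The count of 6 was 2 without 4T07 tumour 1, 10 without 4T07 tumour 2, and 1, 1 and 2 without EMT6 tumours 1, 2 and 4. Rbl1, which encodes the DREAM subunit p107, fell in both lines and further in 4T07 (difference -0.94 ± 0.12, adjusted p = 0.00109). Ccng1, cyclin G1, a p53 target, rose in 4T07 (0.55 ± 0.07) and was not called in EMT6 (-0.15 ± 0.07). Cdkn2c, the CDK inhibitor p18, fell in both lines, with changes of -1.04 in 4T07 and -0.32 in EMT6. The inhibitor Cdkn1a was not called in either line, at -0.18 and -0.22.

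**Figure D2:**
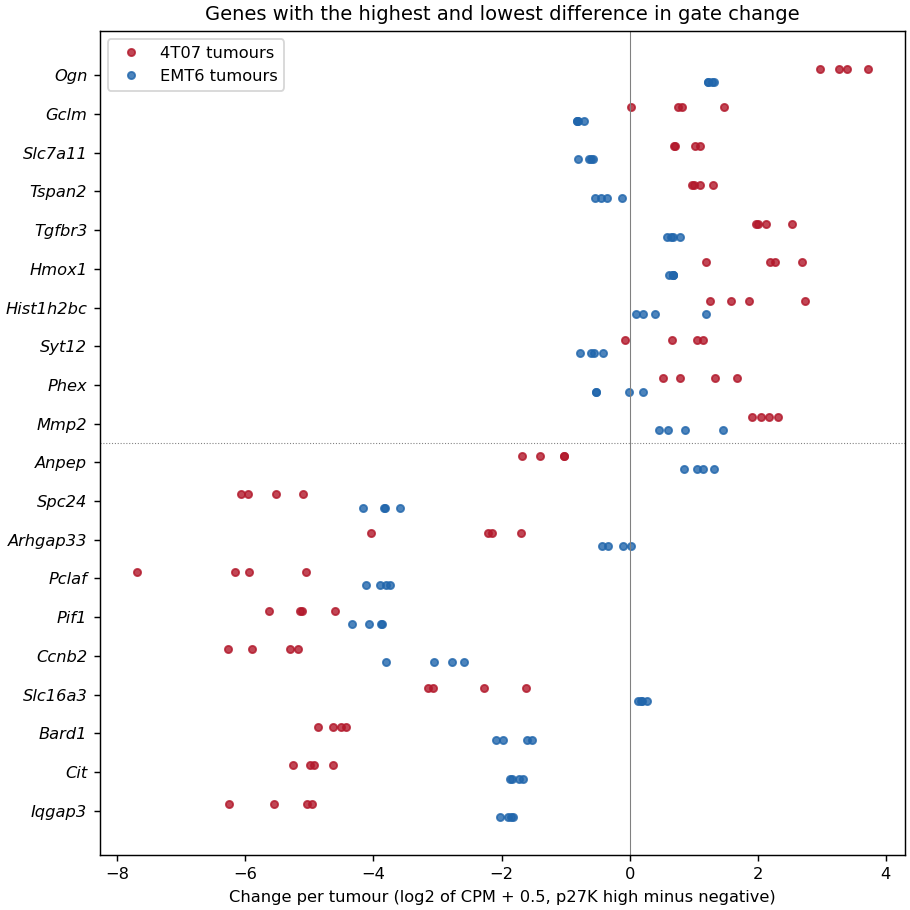
Gate change in each of the 4 tumours per line for the 10 genes with the highest and the 10 with the lowest difference, as log2 of CPM + 0.5, p27K high minus negative. The tumours of the 2 lines do not overlap for any of the 20 genes, which the choice of genes required, and the fitted falls of Iqgap3, Cit and Bard1 are -5.55, -5.21 and -4.94 in 4T07 against -1.92, -1.80 and -1.84 in EMT6.

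NRF2 is held low by KEAP1 in unstressed cells and, when freed, switches on genes of glutathione and thioredoxin metabolism through antioxidant response elements. Many of these genes moved differently in the lines. Of 25 tested members of the NRF2 list, 15 rose in 4T07 and 2 fell, against 4 that rose and 9 that fell in EMT6. The difference was called higher in 4T07 for 12 and lower for none, against 10.7% and 8.22% of all genes, with a median of 0.28. Under library totals it was higher for 12 and lower for 1. The list median was 0.55, 0.39, 0.09 and 0.24 in 4T07 tumours 1 to 4, against -0.02, -0.08, -0.10 and -0.06 in EMT6 tumours 0, 1, 2 and 4. The lines did not overlap, although 4T07 tumour 3 lay close to EMT6. Nfe2l2, the gene of NRF2 itself, rose in 4T07 (0.39 ± 0.11) and was not called in EMT6 (0.24 ± 0.11), and its difference was not called (0.14 ± 0.15, adjusted p = 0.539).

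Slc7a11 (chromosome 3, 49892526 to 50443614, minus strand) encodes the cystine carrier that feeds glutathione synthesis. It had 109, 124, 49.6 and 118 CPM in the p27K high libraries of 4T07 and 67.1, 61.2, 30.1 and 55 CPM in the negative ones, against 38.4, 64.8, 66.2 and 63.4 CPM in the p27K high libraries of EMT6 and 57.2, 114, 103 and 97.1 CPM in the negative ones. Within every 4T07 tumour the p27K high library was the higher one, and within every EMT6 tumour the lower one. The changes were 0.89 ± 0.08 and -0.66 ± 0.08, a difference of 1.55 ± 0.12 (adjusted p = 4.64e-05). Gclm (chromosome 3, 122245557 to 122270732, plus strand), the modifier subunit of the rate-limiting enzyme of glutathione synthesis, had 68.9, 101, 26.4 and 52.2 CPM in the p27K high libraries of 4T07 and 38.8, 36.3, 26.1 and 30.9 CPM in the negative ones, against 71.8, 107, 124 and 99 CPM in the p27K high libraries of EMT6 and 126, 177, 219 and 175 CPM in the negative ones. It was higher in p27K high cells in 4T07 tumours 1, 2 and 4, hardly differed between gates in 4T07 tumour 3, and was lower in all 4 EMT6 tumours. The difference was 1.58 ± 0.23 (adjusted p = 0.00207). Gclc, the catalytic subunit of the same enzyme, had 141, 138, 50.8 and 88.1 CPM in the p27K high libraries of 4T07 and 67.9, 53.2, 32.7 and 44.7 CPM in the negative ones, against 68.1, 106, 88.1 and 114 CPM in the p27K high libraries of EMT6 and 71.3, 113, 86.8 and 119 CPM in the negative ones. It rose in 4T07 (1.01 ± 0.10) and was not called in EMT6 (-0.05 ± 0.10), a difference of 1.06 ± 0.14 (adjusted p = 0.000975).

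Hmox1, haem oxygenase, had 471, 251, 117 and 201 CPM in the p27K high libraries of 4T07 and 72.5, 51.4, 50.6 and 43.5 CPM in the negative ones, against 314, 410.3, 526 and 451 CPM in the p27K high libraries of EMT6 and 195, 257, 345 and 282 CPM in the negative ones. It rose in both lines and further in 4T07, by 2.11 ± 0.18 against 0.66 ± 0.17 in EMT6 (adjusted p = 0.0039 for the difference of 1.45 ± 0.25), although EMT6 kept the higher level in both gates on average. Gsta4, a glutathione transferase for lipid aldehydes, rose in 4T07 from a low level (0.99 ± 0.13, all libraries at 2.04 to 8.05 CPM) and was not called in EMT6 (-0.04 ± 0.10, 149.5 to 234.9 CPM). Also higher in 4T07 were the quinone reductase Nqo1 (0.90), thioredoxin reductase Txnrd1 (0.85), sulfiredoxin Srxn1 (0.81), glutathione reductase Gsr (0.57), and the NADPH sources Pgd (0.65) and Me1 (0.63). Ferritin heavy chain Fth1 differed by 0.52.

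The antioxidant response element core, searched as TGACNNNGC on both strands, was present in the windows of 9 of the 20 list members with a RefSeq window (45%), against 17% of tested genes, and in 5 of 8 members higher in 4T07. Within these windows, 80 bases around the motif, from 160 to 81 bases before the start site of Gclm and from 120 to 41 before that of Txnrd1, are shown because both genes rose in 4T07 and fell in EMT6. The capitals mark the motif, which lies on the opposite strand in both.
Gclm, chr3:122245397-122245476, plus strand: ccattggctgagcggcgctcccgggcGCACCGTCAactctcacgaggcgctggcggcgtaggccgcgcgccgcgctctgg
Txnrd1, chr10:82859086-82859165, plus strand: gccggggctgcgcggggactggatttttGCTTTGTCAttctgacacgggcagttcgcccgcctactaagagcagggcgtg

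**Figure D3:**
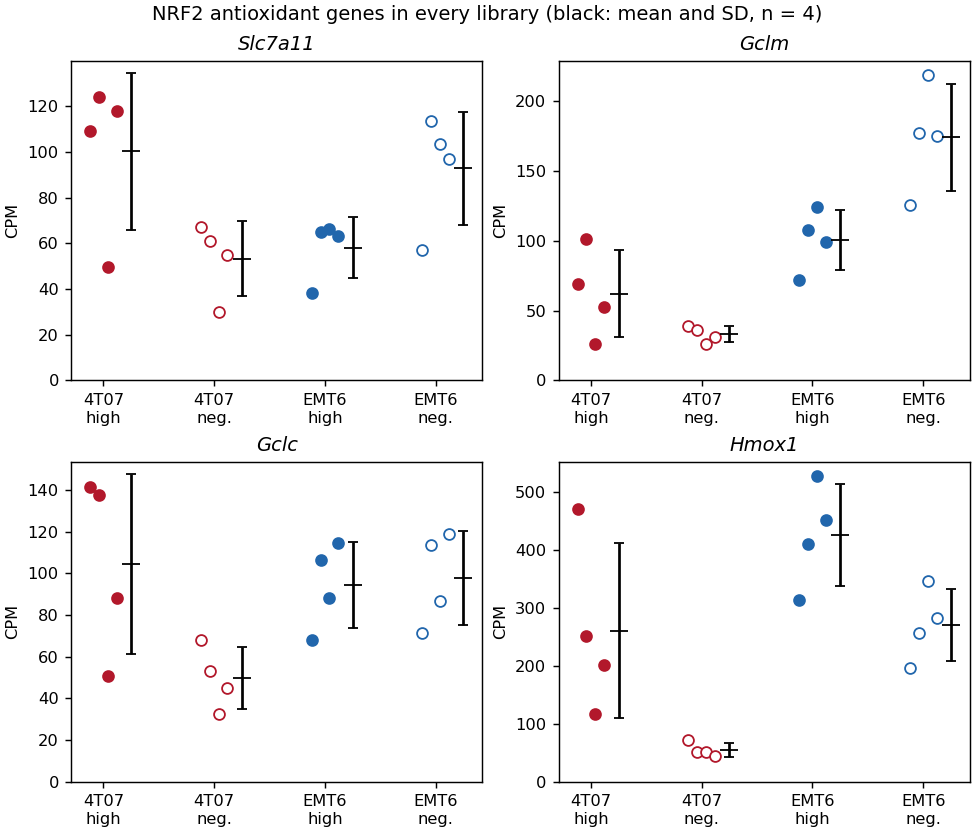
CPM of 4 NRF2 list genes in every library, with filled points for p27K high, open points for p27K negative and black bars for the mean and SD of 4 libraries. Slc7a11 and Gclm averaged higher in p27K high than negative libraries of 4T07 and lower in p27K high than negative libraries of EMT6, and Hmox1 averaged higher in the p27K high libraries of both lines.

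Most hypoxia targets rose in both lines, and the change was higher in 4T07 for 19 of 41. Of 41 tested HIF targets 33 rose and 3 fell in 4T07, against 34 and 0 in EMT6, with medians of 0.98 and 0.60. The difference was higher in 4T07 for 19 and lower for 3 (10.7% and 8.22% of all genes), with a median of 0.38. Under library totals the counts were 15 and 4, and without single tumours the higher count ran from 15 to 24, and the lower count was 5 without 4T07 tumour 2. The list median of every 4T07 tumour, 0.92 to 1.06, exceeded that of every EMT6 tumour, 0.54 to 0.74. Car9, the carbonic anhydrase that exports acid from hypoxic cells, had 250.3, 192, 236 and 180.5 CPM in the p27K high libraries of 4T07 and 45.2, 35.8, 58 and 29.2 CPM in the negative ones, against 144, 168, 166 and 164 CPM in the p27K high libraries of EMT6 and 53.6, 64.3, 74.2 and 75.8 CPM in the negative ones. The p27K high libraries exceeded the negative ones of the same line throughout, by 2.39 ± 0.10 in 4T07 and 1.27 ± 0.10 in EMT6 (difference 1.11 ± 0.14, adjusted p = 0.000688). P4ha1, a collagen prolyl hydroxylase, had 728, 728, 734 and 661 CPM in the p27K high libraries of 4T07 and 318, 282, 317 and 257 CPM in the negative ones, against 518, 472, 482 and 498 CPM in the p27K high libraries of EMT6 and 342, 319, 337 and 351 CPM in the negative ones. Its negative libraries were slightly lower in 4T07 on average and its p27K high libraries clearly higher, a difference of 0.74 ± 0.08 (adjusted p = 0.000469). Ak4, a mitochondrial adenylate kinase, differed by 0.91 ± 0.09 (adjusted p = 0.000243).

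Adm, adrenomedullin, went the other way. It had 0.266, 0.364, 0.366 and 0.36 CPM in the p27K high libraries of 4T07 and 1.24, 1.98, 1.81 and 0.85 CPM in the negative ones, against 132, 186, 205 and 192 CPM in the p27K high libraries of EMT6 and 103, 95.7, 136 and 105 CPM in the negative ones. The gene was nearly silent in 4T07 and fell there (-2.07 ± 0.25), whereas it was abundant in EMT6 and rose (0.70 ± 0.10), a difference of -2.77 ± 0.27 (adjusted p = 0.00022). The other lower members were the lysyl oxidase Loxl2 (-1.05) and the lipid droplet protein Hilpda (-0.85). The HIF core site, searched as ACGTG on both strands and also contained in the E-box CACGTG, was in 22 of 30 members with a window (73.3%), against 28.7% of tested genes.

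Glycolytic enzymes overlap with the HIF targets. Of 17, 15 rose in 4T07 and 14 in EMT6, and the difference was higher in 4T07 for 6 and lower for none (10.7% and 8.22% of all genes), which fell to 1 under library totals. It was also 9 without 4T07 tumour 2, 2 without EMT6 tumour 2 and 4 without 4T07 tumour 1 or EMT6 tumour 1 or 4. Without 4T07 tumour 4 it was 4 as well. Pfkl, phosphofructokinase of liver type, differed by 0.47 ± 0.09 (adjusted p = 0.00743) and Ldha, lactate dehydrogenase, by 0.46 ± 0.09 (adjusted p = 0.00765). The call of Pfkl was lost under library totals (adjusted p = 0.141). Slc16a3, the lactate exporter MCT4, was among the genes with the lowest differences outside the immune lists. It had 2.56, 1.01, 1.61 and 2.46 CPM in the p27K high libraries of 4T07 and 8.9, 12.8, 17.2 and 13.8 CPM in the negative ones, against 257, 320.5, 322 and 345 CPM in the p27K high libraries of EMT6 and 224, 264, 294 and 305 CPM in the negative ones. The 4T07 libraries were low and fell in p27K high cells (-2.72 ± 0.22), whereas the EMT6 libraries were high and were not called (0.20 ± 0.16), for a difference of -2.92 ± 0.28 (adjusted p = 0.00022).

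Ribosome biogenesis genes fell in EMT6, and 14 of 35 fell less or rose in 4T07. Of 35 tested members, which include MYC and its targets, 5 rose and 16 fell in 4T07, against 1 and 29 in EMT6. The difference was higher for 14 and lower for none (10.7% and 8.22% of all genes), with a median of 0.26, but for only 8 with DESeq2 size factors and 1 under library totals. It was 4 without 4T07 tumour 1, and 5, 7, 2 and 4 without EMT6 tumours 0, 1, 2 and 4. Wdr75, a factor of the small subunit processome, rose in 4T07 (0.37 ± 0.10) and fell in EMT6 (-0.34 ± 0.10), a difference of 0.70 ± 0.14 (adjusted p = 0.00698). Heatr1, of the same processome, and Wdr12, of the PeBoW complex, fell in EMT6 alone, with differences of 0.42 ± 0.09 and 0.47 ± 0.10. Both of these calls were lost under library totals, and that of Wdr12 also without EMT6 tumour 2.

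Cholesterol synthesis genes fell in 4T07 and were mostly not called in EMT6. Of 25 tested members 18 fell and none rose in 4T07, against 5 and 1 in EMT6. The difference was lower in 4T07 for 13 and higher for none (8.22% and 10.7% of all genes), with a median of -0.49, and lower for 18 under library totals. Without EMT6 tumours 1, 2 and 4 it was lower for 5, 8 and 6. Fdps, farnesyl diphosphate synthase, had 23.7, 19.6, 30.7 and 24.3 CPM in the p27K high libraries of 4T07 and 58.5, 52.2, 56.6 and 53 CPM in the negative ones, against 118, 152, 119 and 131 CPM in the p27K high libraries of EMT6 and 148, 175, 144 and 156 CPM in the negative ones. The p27K high library was the lower one in 8 of 8 tumours, and all levels were lower in 4T07. The changes were -1.18 ± 0.08 in 4T07 and -0.26 ± 0.08 in EMT6, a difference of -0.92 ± 0.12 (adjusted p = 0.000858). Pmvk, phosphomevalonate kinase, had 11.3, 9.55, 12.9 and 14.2 CPM in the p27K high libraries of 4T07 and 20.8, 21.6, 22.5 and 26.4 CPM in the negative ones, against 34.2, 35.2, 29 and 39.1 CPM in the p27K high libraries of EMT6 and 37, 36.3, 27.9 and 38.3 CPM in the negative ones. In 4T07 the p27K high libraries lay below all negative ones, while in EMT6 the gates overlapped. The difference was -0.92 ± 0.12 (adjusted p = 0.00106). Srebf2, the gene of the master regulator SREBP2, fell in 4T07 alone, with a difference of -0.73 ± 0.18 (adjusted p = 0.0174). A sterol response element, searched as TCACNCCAC on both strands, was in 1 of 17 members with a window and in 1.41% of tested genes. It was in 0 of the 8 such members that were lower in 4T07.

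Genes of protein folding in the endoplasmic reticulum were higher in 4T07 for 8 of 23 and lower for none (10.7% and 8.22% of all genes), with a median of 0.26, and for 5 of 23 under library totals. The count was 12 without 4T07 tumour 2 and 5 without EMT6 tumour 1, 2 or 4. Selenos, a membrane selenoprotein of the degradation machinery there, had 72.9, 79, 74.2 and 77.5 CPM in the p27K high libraries of 4T07 and 51.2, 56.7, 46.2 and 53.2 CPM in the negative ones, against 53.4, 52.3, 52.7 and 45.7 CPM in the p27K high libraries of EMT6 and 70.2, 60.7, 62.9 and 55.2 CPM in the negative ones. The p27K high libraries were above the negative ones in all 4T07 tumours and below them in all EMT6 tumours (difference 0.84 ± 0.09, adjusted p = 0.000388). Pdia4, a disulfide isomerase, likewise rose in 4T07 (0.21 ± 0.06) and fell in EMT6 (-0.37 ± 0.06), and Selenok, another selenoprotein of that membrane, rose in 4T07 (0.73 ± 0.06) and was not called in EMT6 (0.16 ± 0.06). The list of ATF4 and amino acid stress genes had 10 higher and 2 lower of 32 (10.7% and 8.22% of all genes), or 4 and 3 under library totals, where the median of 0.17 became -0.004, and 15 higher without 4T07 tumour 2. Besides Slc7a11, which is on it, Nupr1, a stress-induced chromatin factor, rose in both lines and further in 4T07 (difference 0.78 ± 0.11), and Sars, seryl-tRNA synthetase, rose in 4T07 (0.52 ± 0.06) and was not called in EMT6 (-0.01 ± 0.06).

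**Figure D4:**
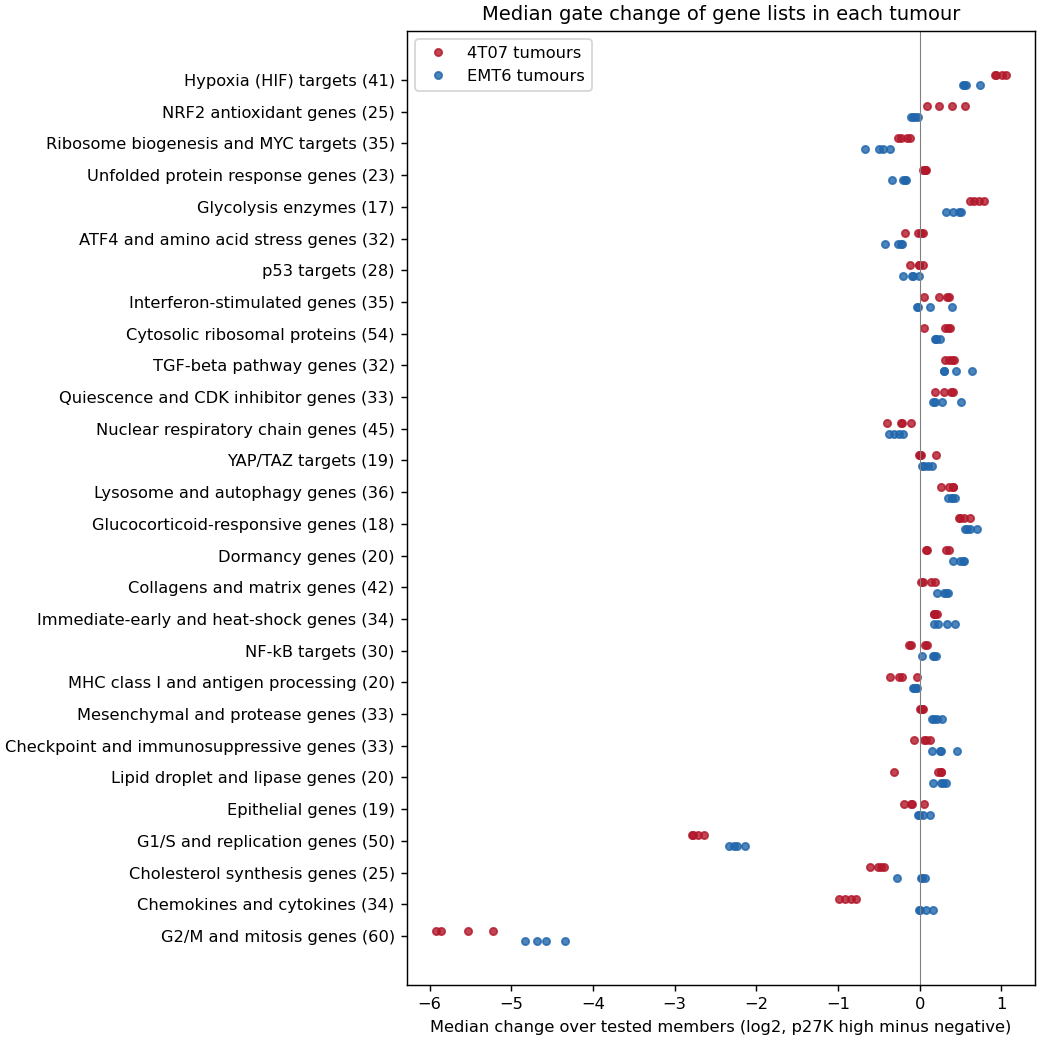
Median gate change of 28 gene lists in each tumour, as log2 of CPM + 0.5, p27K high minus negative, with the number of tested members in brackets. Red points are the 4 tumours of 4T07 and blue points the 4 of EMT6, and lists are ordered by the difference. The G2/M and hypoxia lists separate the lines without overlap.

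Matrix genes moved in both directions. Of 42 collagens and matrix genes 9 were higher and 5 lower (10.7% and 8.22% of all genes), with a median difference of -0.05, or 5 and 7 with DESeq2 size factors. Without EMT6 tumours the higher count was 5 or 6 and the lower count 1 or 2. Without 4T07 tumours 1 to 4 the counts were 7 and 2, 10 and 9, 6 and 5, and 5 and 3. Ogn, osteoglycin, a small leucine-rich proteoglycan of the matrix, had the highest difference of any gene named (chromosome 13, 49608046 to 49624501, plus strand). It had 28.4, 87.5, 27.7 and 60.5 CPM in the p27K high libraries of 4T07 and 3.16, 6.18, 2.44 and 5.29 CPM in the negative ones, against 655, 1104, 1118 and 1365 CPM in the p27K high libraries of EMT6 and 269.8, 473, 448 and 587 CPM in the negative ones. The level was far lower in 4T07 and its rise larger, 3.52 ± 0.10 against 1.26 ± 0.08 in EMT6 (difference 2.26 ± 0.12, adjusted p = 7.46e-06). Col12a1, a fibril-associated collagen, had 1.01, 0.769, 3.55 and 2.26 CPM in the p27K high libraries of 4T07 and 4.96, 2.25, 11.5 and 7.96 CPM in the negative ones, against 918, 1566, 1126 and 1719 CPM in the p27K high libraries of EMT6 and 488, 922, 582 and 1058 CPM in the negative ones. It fell from a low level in 4T07 and rose in EMT6, a difference of -2.68 ± 0.14 (adjusted p = 6.8e-06). The collagen-modifying enzymes Plod2 and P4ha2, which are also HIF targets, rose in both lines and further in 4T07, by 0.90 ± 0.12 and 0.65 ± 0.09. Ogn and a further 20 tested genes also mark pericytes and fibroblasts. Summed, the 26 markers on that list stood at 2800 to 3999 CPM in p27K high and 1313 to 1760 CPM in negative libraries of 4T07, against 2312 to 3196 and 1569 to 2010 CPM in EMT6. A mean of at least 1 CPM was reached by 15 of the 26 in 4T07 and 16 in EMT6, and none was at 0 throughout a line. Their part in these results was not tested.

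In the TGF-beta pathway 5 of 32 genes were higher and 4 lower, against 10.7% and 8.22% of all genes (4 and 6 with DESeq2 size factors, 2 and 7 under library totals, 8 and 6 without 4T07 tumour 2, 3 and 4 without EMT6 tumour 1 or 2). Tgfbr3, betaglycan, the accessory receptor, had 144, 111, 119 and 134 CPM in the p27K high libraries of 4T07 and 35.5, 27.8, 26.8 and 22.8 CPM in the negative ones, against 147, 154, 132 and 147 CPM in the p27K high libraries of EMT6 and 92.5, 89.1, 87.5 and 93.3 CPM in the negative ones. The p27K high libraries overlapped between lines, whereas the negative ones were lower in 4T07. The rise was 2.18 ± 0.09 in 4T07 and 0.68 ± 0.09 in EMT6 (difference 1.50 ± 0.13, adjusted p = 0.000101). Ctgf, a matricellular target of TGF-beta and YAP, rose in both lines and further in 4T07 (difference 1.15 ± 0.12, adjusted p = 0.000279). The ligand gene Tgfb1 had 66.4, 53.3, 67.8 and 62.4 CPM in the p27K high libraries of 4T07 and 87.5, 98, 88.5 and 91.5 CPM in the negative ones, against 38.6, 58.6, 55.1 and 48.8 CPM in the p27K high libraries of EMT6 and 35, 52.7, 39.4 and 39.1 CPM in the negative ones. It fell in 4T07 (-0.55 ± 0.09) and rose in EMT6 (0.28 ± 0.10), a difference of -0.83 ± 0.13 (adjusted p = 0.00302). Of 33 mesenchymal and protease genes 2 were higher and 8 lower (10.7% and 8.22% of all genes), and 5 lower without EMT6 tumour 1 or 2. Mmp2, gelatinase A, rose in both lines and further in 4T07 (difference 1.29 ± 0.19, adjusted p = 0.0021), whereas Plau, urokinase, fell in 4T07 (-1.10 ± 0.10) and was not called in EMT6 (0.20 ± 0.10).

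A gate change of opposite sign, called in each line and in the difference, was found for 200 genes, 1.5% of those tested, of which 10 were on host immune lists. They rose in 4T07 and fell in EMT6 in 99 cases and the reverse in 101. With DESeq2 size factors the split was 52 and 137, and under library totals 27 and 171. Without 4T07 tumour 2 there were 395, and without single EMT6 tumours 88 to 124. Among those that rose in 4T07, Tspan2, a tetraspanin, had 9.51, 9.39, 18.3 and 12.2 CPM in the p27K high libraries of 4T07 and 4.16, 4.51, 8.82 and 4.69 CPM in the negative ones, against 24.7, 27.7, 21.5 and 29.4 CPM in the p27K high libraries of EMT6 and 33.8, 30, 31.5 and 37.7 CPM in the negative ones (difference 1.54 ± 0.14, adjusted p = 0.000186). The p27K high library was the higher one in 4 of 4 tumours of 4T07 and the lower one in 4 of 4 of EMT6. Mbnl3, a splicing factor, differed by 1.08 ± 0.11 and Vbp1, a prefoldin subunit, by 0.95 ± 0.10.

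In the reverse direction, Anpep, aminopeptidase N (CD13), had 8.47, 8.05, 9.07 and 12.2 CPM in the p27K high libraries of 4T07 and 17.7, 22.1, 30.1 and 25.4 CPM in the negative ones, against 62.9, 95.8, 85.1 and 123 CPM in the p27K high libraries of EMT6 and 28.2, 53.2, 33.8 and 59 CPM in the negative ones. It fell in every 4T07 tumour and rose in every EMT6 tumour, a difference of -2.42 ± 0.17 (adjusted p = 2.85e-05). Tgfbi, a TGF-beta induced matrix protein, had 20.3, 18.2, 28.3 and 19.1 CPM in the p27K high libraries of 4T07 and 45, 63.6, 92.4 and 91.4 CPM in the negative ones, against 152, 53.3, 57.6 and 82.2 CPM in the p27K high libraries of EMT6 and 82.8, 34.8, 39.2 and 68.3 CPM in the negative ones, with the same pattern in 8 of 8 tumours (-2.31 ± 0.21, adjusted p = 0.000169). Ctsa, a lysosomal carboxypeptidase, differed by -1.11 ± 0.10, Tbkbp1, an adaptor of the kinase TBK1, by -2.02 ± 0.17, and Mical3, an actin-oxidising enzyme, by -1.08 ± 0.10. Macrophage markers moved with these genes. Summed over 85 symbols they stood at 1307 to 1591 CPM in p27K high and 2144 to 4011 CPM in negative libraries of 4T07, without overlap, against 205 to 260 and 162 to 201 CPM in EMT6. A mean of at least 1 CPM was reached by 77 of the 85 in 4T07 and 20 in EMT6, where the defining markers Spi1 and Adgre1 did not exceed 0.238 CPM in any library. Their part in the difference of these genes, of Slc16a3, Plau and Tgfb1, and of the immune genes that follow was not tested.

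Of 36 lysosome and autophagy genes 5 were higher and 4 lower (10.7% and 8.22% of all genes), or 5 and 6 with DESeq2 size factors and 2 and 9 under library totals. Without 4T07 tumour 4 the counts were 5 and 7, without 4T07 tumour 2 they were 8 and 6, and without EMT6 tumour 2 they were 3 and 3. Sqstm1, the autophagy receptor p62, rose in both lines and further in 4T07 (difference 0.62 ± 0.12), as did Lamp2, a lysosomal membrane protein (0.78 ± 0.16). In antigen processing for MHC class I, 1 of 20 genes was higher and 5 lower (10.7% and 8.22% of all genes), or 0 and 8 with DESeq2 size factors. The lower count was 3, 9 and 8 without 4T07 tumours 1, 2 and 4, and 3, 2, 1 and 2 without EMT6 tumours 0, 1, 2 and 4. Psmb9, an immunoproteasome subunit, fell in 4T07 (-1.08 ± 0.13) and was not called in EMT6 (-0.24 ± 0.13), a difference of -0.84 ± 0.18 (adjusted p = 0.0116). Tap1, a peptide transporter, also fell in 4T07 alone (difference -0.58 ± 0.14, adjusted p = 0.0189), a call lost without EMT6 tumour 2.

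Of 30 NF-kB targets 4 were higher and 5 lower (10.7% and 8.22% of all genes), or 2 and 10 under library totals. The lower count was 2 without 4T07 tumour 1, and 3 without EMT6 tumour 0, 1 or 4, while the higher count was 2 without EMT6 tumour 1, 2 or 4. Ptgs2, which encodes the prostaglandin synthase COX-2, had 1965, 2638, 1530 and 1126 CPM in the p27K high libraries of 4T07 and 751, 596, 497 and 443 CPM in the negative ones, against 1777, 3435, 3090 and 3095 CPM in the p27K high libraries of EMT6 and 1442, 2317, 2204 and 2036 CPM in the negative ones. It rose in both lines and further in 4T07, by 1.62 ± 0.12 against 0.49 ± 0.12 in EMT6 (difference 1.13 ± 0.16, adjusted p = 0.00191). Traf1, a signalling adaptor, fell in 4T07 and rose in EMT6 (difference -1.25 ± 0.21, adjusted p = 0.00389). Checkpoint and immunosuppressive genes had 3 higher, Ptgs2, Hmox1 and the granzyme inhibitor Serpinb9 (0.48), and 6 lower of 33 (10.7% and 8.22% of all genes). The lower ones included Tgfb1, Arg1, arginase of myeloid cells (-3.25), and Havcr2, the receptor TIM-3 (-3.51). Arg1 is also on the macrophage list, from whose counts nothing is read. Of the 19 members with at least 5 CPM in each line 3 were higher and 5 lower, beside 1274 and 886 of all 9279 genes in that fit. Without single tumours the lower count of the 33 ran from 4 to 8.

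Chemokines and cytokines were lower in 4T07 for 9 of 34 (8.22% of all genes) and higher for 2 (10.7%), Cxcl5 (1.02), a neutrophil attractant, and Il11 (0.67), a cytokine of the IL-6 family. The median difference was -0.81, or -0.24 over the 14 members with at least 5 CPM in each line. Of those 14, 4 were lower and 2 higher, beside 886 and 1274 of all 9279 genes in that fit. For the full list the lower count was 5 without 4T07 tumour 1 or EMT6 tumour 2 and 6 without any other EMT6 tumour. Cxcl16, a transmembrane chemokine, had 10.4, 10.8, 7.76 and 9.92 CPM in the p27K high libraries of 4T07 and 33.7, 37.5, 39.8 and 31.1 CPM in the negative ones, against 10.6, 13.9, 17.6 and 12 CPM in the p27K high libraries of EMT6 and 10.7, 11.2, 16.3 and 10.7 CPM in the negative ones. In 4T07 all p27K high libraries lay below all negative ones, and in EMT6 the gates overlapped. The difference was -2.02 ± 0.18 (adjusted p = 0.000127). Il1rn, the interleukin-1 receptor antagonist, fell in 4T07 (-2.33 ± 0.20) and rose in EMT6 at 0.357 to 3.56 CPM (1.00 ± 0.32). Ccl9, a macrophage chemokine, fell in 4T07 (-2.28 ± 0.19) and was not called in EMT6 (-0.54 ± 0.22).

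The pan-leukocyte and macrophage lists are given by level and by count. In sorted bulk samples, fewer cells of a type and less RNA per cell cannot be told apart. Ptprc, the gene of CD45, stood at 4.72 to 12.5 CPM in p27K high and 19.6 to 38.8 CPM in negative libraries of 4T07, against 0 to 0.305 and 0.178 to 0.24 CPM in EMT6. The list as a whole was not near 0 in EMT6. Summed, its 86 symbols stood at 1046 to 1285 CPM in p27K high and 1737 to 2410 CPM in negative libraries of 4T07. In EMT6 the sums were 739 to 795 and 713 to 841 CPM. A mean of at least 1 CPM was reached by 79 of the 86 in 4T07 and 24 in EMT6. Of 84 tested pan-leukocyte genes 74 fell and 3 rose in 4T07, against 3 and 6 in EMT6. Of 80 macrophage and monocyte genes 73 fell and 4 rose in 4T07, against 1 and 10 in EMT6. Of all genes 25.1% fell and 27.7% rose in 4T07, against 17.4% and 16.2% in EMT6. A gene could pass the count filter through the negative libraries of 4T07 alone, which favours a fall there, so nothing is read from these counts. Macrophage differences were lower in 4T07 for 26 and higher for 1, the receptor gene Tlr2 (0.54), beside 8.22% and 10.7% of all genes. The lower count was 17 without EMT6 tumour 2. Only 20 of the 85 macrophage symbols reached a mean of 1 CPM in EMT6, so nothing is read from that count. Of the 11 with at least 5 CPM in each line, 8 were lower and 1 higher, with a median of -1.31. In that fit 886 of all 9279 genes were lower and 1274 higher. Csf1r, the receptor for macrophage colony-stimulating factor, had 8.98, 10.2, 8.49 and 9.3 CPM in the p27K high libraries of 4T07 and 38.6, 51.5, 92.2 and 54.4 CPM in the negative ones, against 7.29, 13.9, 13.2 and 12.4 CPM in the p27K high libraries of EMT6 and 4.93, 6.41, 10.1 and 7.2 CPM in the negative ones (difference -3.31 ± 0.28, adjusted p = 0.000112). Apoe, a lipid carrier abundant in macrophages, fell in 4T07 (-2.58 ± 0.19) and was not called in EMT6 (0.00 ± 0.19). Pik3r5, a leukocyte PI3-kinase subunit, and Runx3, a lymphoid and myeloid transcription factor, differed by -3.50 ± 0.34 and -3.16 ± 0.21. Runx3 stood at 0.566 to 6.52 CPM in 4T07 against 24.9 to 55.8 CPM in EMT6, among the 23 of 220 host immune genes whose mean level was not lower in EMT6.

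MHC class II genes fell in 4T07 for 8 of 8 tested members and in EMT6 for 4, beside 25.1% and 17.4% of all genes. The difference was lower in 4T07 for 5 (8.22% of all genes), or 3 without 4T07 tumour 1 or EMT6 tumour 0 or 4. With no replicate block it was called for 0 of the 8. Cd74, the invariant chain, had 429.5, 189.5, 372 and 254 CPM in the p27K high libraries of 4T07 and 916, 567, 808 and 533 CPM in the negative ones, against 18, 84.6, 188 and 90.9 CPM in the p27K high libraries of EMT6 and 22.7, 118, 282 and 108 CPM in the negative ones. It fell in both lines, with changes of -1.21 ± 0.09 in 4T07 and -0.42 ± 0.10 in EMT6 (difference -0.80 ± 0.13, adjusted p = 0.00336). H2-Eb1, a class II beta chain, differed by -0.86 ± 0.17. Dendritic cell genes were lower for 2 of 6 tested and neutrophil genes for 2 of 20. T and NK cell genes were lower for 3 of 20 and B and plasma cell genes for 1 of 2. None of these was higher, beside 8.22% lower and 10.7% higher of all genes. Of 2 tested mast cell genes 1 was higher. These counts of 1 to 3 changed with single libraries, and the neutrophil count was 0 without EMT6 tumour 1, 2 or 4. Csf3r, the granulocyte receptor, fell in 4T07 (-1.93 ± 0.27) and stood at 0 to 0.238 CPM in EMT6, at the limit of detection, so no fold is given there. S100a8, a neutrophil alarmin, was not called in 4T07 (-0.09 ± 0.20) and rose in EMT6 at 0.595 to 2.03 CPM (1.44 ± 0.38), and its difference (adjusted p = 0.0307) was lost without any one of the EMT6 tumours.

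Some immune list genes were abundant where the defining markers of their cell type were not. The summed T and NK cell list was higher in EMT6 than in 4T07. It stood at 112 to 128 CPM in p27K high and 122.5 to 149 CPM in negative libraries of EMT6. In 4T07 it stood at 21.9 to 36.7 and 53.6 to 65.7 CPM. Cd3d of T cells was at 0 in 7 of 8 EMT6 libraries. Yet Tigit, a T and NK cell receptor, stood at 69.8 to 102.8 CPM in EMT6 against 2.15 to 9.96 CPM in 4T07, where it fell (-1.81 ± 0.13, difference -1.64 ± 0.16). Tcf7, a T cell factor of the WNT pathway, also fell in 4T07 alone (difference -1.08 ± 0.26). The call of this difference was lost without EMT6 tumour 4 (adjusted p = 0.0509). Padi4, a histone deiminase of neutrophils, made up most of the neutrophil sum of 4T07, at 433 to 674 CPM, while S100a9 there reached 32.8 CPM at most. In the p27K high libraries of EMT6 Padi4 reached 121 CPM, while S100a9 did not exceed 0.119 CPM. Il1rl1, the interleukin-33 receptor, made up nearly all of the mast cell sum of EMT6, at 667 to 1360 CPM, where 4 of 11 mast cell genes were at 0 in all 8 libraries.

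**Figure D5:**
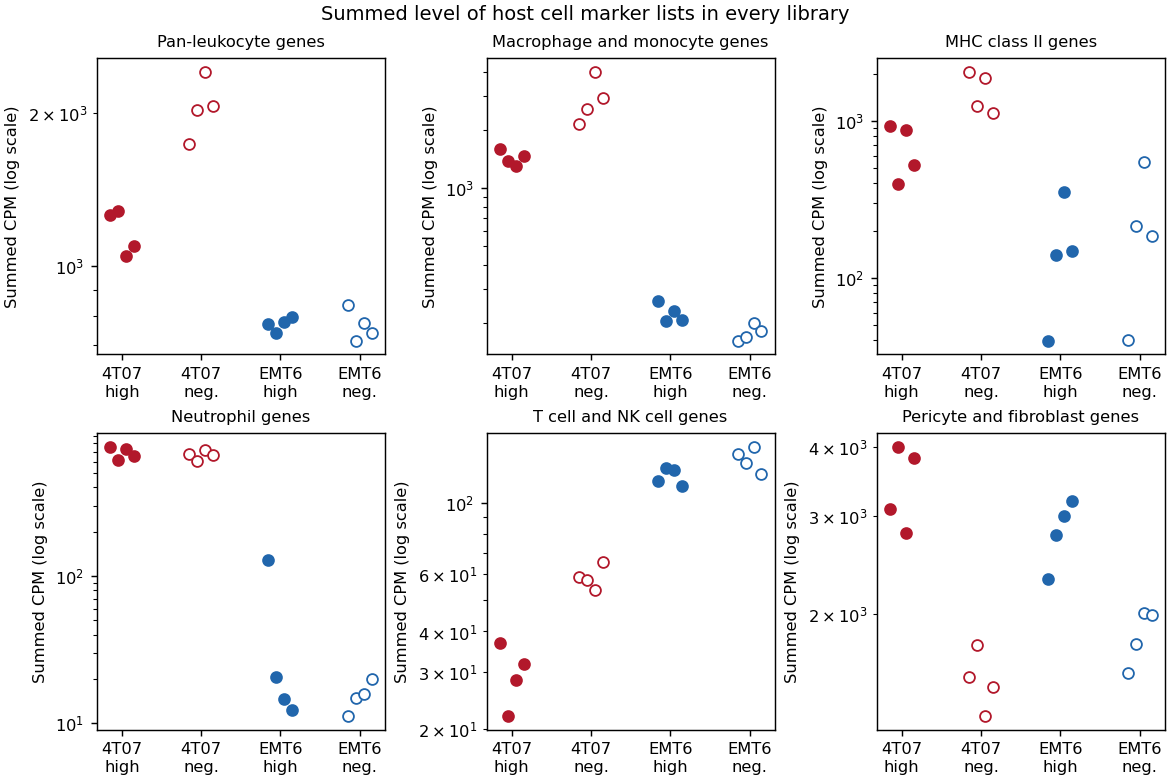
Summed CPM of 6 lists of host cell markers in every library on log axes, with filled points for p27K high and open points for p27K negative. Macrophage markers were lower in p27K high than in negative libraries of 4T07 and were low in both gates of EMT6. The p27K high library of EMT6 tumour 0 stands apart in the neutrophil sum, at 129 CPM, of which the single gene Padi4 gave 121 CPM.

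Genes outside these lists completed the 10 highest differences. Hist1h2bc, a histone H2B gene of the Hist1 cluster, rose in 4T07 (1.89 ± 0.22) and was not called in EMT6 (0.51 ± 0.26), a difference of 1.38 ± 0.34 (adjusted p = 0.018) that was lost without EMT6 tumour 1, 2 or 4. Histone genes of this cluster are near-identical, so its counts may include or lack reads of its copies. Phex, an endopeptidase of phosphate metabolism, rose in 4T07 (1.08 ± 0.18) and was not called in EMT6 (-0.22 ± 0.20). Syt12, a synaptotagmin, rose in 4T07 (0.75 ± 0.19) and fell in EMT6 (-0.62 ± 0.20), although 4T07 tumour 2 stood at -0.08.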

How the data were processed

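Sorted p27K high and negative cells of 4 tumours per line were profiled by bulk RNA-seq. The deposited values are raw counts per gene symbol, in 1 table per line, made by GENEWIZ per the labels' protocols. The genome build mm10 and DESeq2 are named in the submitters' processing notes. The sources used here do not give aligner, counter, strandedness, library kit or gate settings.

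Tables were joined on symbols regardless of case. For EMT6, 94 symbols on several entries were summed, and 176 blank entries, at most 0.00885% of a library's counts, were left out, as were the total and, in each table, 4 entries whose names had become dates. EMT6 columns are numbered 0, 1, 2 and 4, and gates were paired by these numbers. The labels tie both gates to a tumour, but for EMT6 they use other numbers than the columns. The EMT6 pairing therefore rests on the column numbers and not on the labels. Libraries of the same number correlated best with each other in their deviations from the group mean (r = 0.195 to 0.798 over 5000 genes, against at most 0.34 with any other number). In EMT6 tumour 4 the margin was small, 0.279 against 0.275.

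Differences were tested with edgeR 4.0.16 (R 4.3.3, limma 3.58.1): TMM scaling over 16 libraries, filterByExpr on line and gate, tumours as blocks, 6 residual degrees of freedom, quasi-likelihood tests and Benjamini-Hochberg adjustment over 13355 genes. Every adjusted p printed comes from this test unless another is named. The SE is the log2 change over the square root of F, from the spread shared by both lines, and not an SE over the tumours of 1 line. CPM is TMM-scaled, and per-tumour changes use log2(CPM + 0.5). Log2 values are differences unless called levels. On simulated data with these 13355 genes, 24.8% of 1.5-fold, 68.4% of 2-fold and 88.2% of 4-fold differences were called, and 5.19% of calls were false. Only 335, 335 and 330 changes of these sizes were set over 5 simulations, far fewer than were called here. Both lines had the same levels and spread there, without gate or tumour effects, so these rates need not hold for these data.

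Genes named are Cdkn1b and Mki67, the 10 highest and 10 lowest called differences outside the immune lists with at least 5 CPM in each line and no overlap between lines, the 5 opposite changes of smallest p in each direction, and the 2 to 4 members of smallest p in each list described. A few genes that this rule names are not reported here. Other members are given as examples, chosen after their values were seen. The members and lists were chosen with earlier results of these data known, and their counts are descriptions. Alternatives were scaling, filter, tool (DESeq2 1.42.0), block, all 24 libraries, entries on several symbols, pseudocount and leaving out each tumour. Gene coordinates are from the GENCODE mouse annotation, and promoters are from RefSeq GRCm38.p6.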

Additional observations from a re-analysis of the deposited data

Results flagged for a closer look

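For 81 of the 82 genes named by the rule, the gate change differed between the lines by the test of the difference itself. These differences, 4T07 minus EMT6 in log2 units, are given in groups for the genes reported here. The genes were chosen by these differences, so their sizes are descriptions.

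Genes of division and DNA metabolism fell in both lines and further in 4T07. They were Iqgap3 (-3.63), Cit (-3.41), Bard1 (-3.10), Ccnb2 (-2.82), Pif1 (-2.63), Pclaf (-2.57), Spc24 (-2.46), Kif4 (-2.30), Tk1 (-2.25), Ccne1 (-1.99), Bub1 (-1.96), E2f8 (-1.63), Kif20a (-1.55), Mki67 (-1.18), Rbl1 (-0.94) and Cdkn2c (-0.72). The sterol gene Fdps (-0.92) and the class II genes Cd74 (-0.80) and H2-Eb1 (-0.86) did likewise.

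Genes that rose in both lines and further in 4T07 were Ogn (2.26), Tgfbr3 (1.50), Hmox1 (1.45), Mmp2 (1.29), Ctgf (1.15), Ptgs2 (1.13), Car9 (1.11), Ak4 (0.91), Plod2 (0.90), Nupr1 (0.78), Lamp2 (0.78), P4ha1 (0.74), P4ha2 (0.65), Sqstm1 (0.62), Pfkl (0.47) and Ldha (0.46). Gclc (1.06), Gsta4 (1.03), Hist1h2bc (1.38), Phex (1.30), Ccng1 (0.70), Sars (0.54) and Selenok (0.57) rose in 4T07 and were not called in EMT6. Heatr1 (0.42) and Wdr12 (0.47) fell in EMT6 and were not called in 4T07.

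Opposite changes with a rise in 4T07 were seen for Gclm (1.58), Slc7a11 (1.55), Tspan2 (1.54), Syt12 (1.37), Mbnl3 (1.08), Vbp1 (0.95), Selenos (0.84), Wdr75 (0.70) and Pdia4 (0.58). A fall in 4T07 and a rise in EMT6 were seen for Pik3r5 (-3.50), Il1rn (-3.33), Csf1r (-3.31), Adm (-2.77), Col12a1 (-2.68), Anpep (-2.42), Tgfbi (-2.31), Tbkbp1 (-2.02), Traf1 (-1.25), Ctsa (-1.11), Mical3 (-1.08) and Tgfb1 (-0.83).

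A fall in 4T07 with no call in EMT6 was seen for Runx3 (-3.16), Slc16a3 (-2.92), Apoe (-2.58), Arhgap33 (-2.49), Cxcl16 (-2.02), Ccl9 (-1.74), Tigit (-1.64), Plau (-1.30), Tcf7 (-1.08), Pmvk (-0.92), Psmb9 (-0.84) and Tap1 (-0.58). For Csf3r the fitted value was -4.68, which depends on the prior count because EMT6 was at the limit of detection. This value ran from -7.1 to -3.9 over the alternatives, and the call was lost without EMT6 tumour 1, 2 or 4. S100a8 (-1.54) rose in EMT6 and was not called in 4T07.

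A single tumour or library lay far from the other 3 in 16 of 268 groups of 4 examined, and chance alone flags about 1 in 20. Among per-tumour changes these were Hmox1 in EMT6 tumour 2 (0.61), Ak4 in EMT6 tumour 0 (0.69), Nupr1 in 4T07 tumour 1 (1.11), Lamp2 in EMT6 tumour 0 (0.68), Apoe in 4T07 tumour 3 (-3.51), and Cd74 (-1.58) and Tcf7 (-1.93) in 4T07 tumour 2. Among list medians, EMT6 tumour 0 had the highest hypoxia change (0.74), the lowest cholesterol synthesis change (-0.28) and the lowest unfolded protein response change (-0.34). In 4T07, tumour 3 had the highest YAP and TAZ target change (0.20) and tumour 2 the lowest lipid droplet change (-0.31). Among summed host markers of p27K high cells of EMT6, single libraries stood out for neutrophil genes (129 CPM) and erythroid and platelet genes (33.4 CPM). Of the 129 CPM, Padi4 alone gave 121 CPM. Single EMT6 libraries also stood out for endothelial genes in both gates (19.1 CPM in p27K high and 23.5 CPM in negative cells).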

How the results depend on the processing

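The pairing of gates within tumours mattered most. With no replicate block the difference was called for 829 genes in place of 2527, for 779 without host immune transcripts in place of 2459, opposite changes for 45 in place of 200 and EMT6 gate changes for 2904 in place of 4487, while 4T07 gate changes numbered 5429 in place of 7055. Of the 829, 818 were among the 2527, and 21 of the 82 named genes lost their call. Leaving out 1 tumour at a time gave 1286 to 3730 called differences (lowest without EMT6 tumour 2, highest without 4T07 tumour 2), 1243 to 3655 without host immune transcripts, 88 to 395 opposite changes, 6042 to 7704 changes in 4T07 and 3161 to 6435 in EMT6. Without 4T07 tumour 2, 2496 of the 2527 calls were kept. These 5 counts stayed within 1.5 times under the scalings, filters, other tool and other sample sets tried, and none of the 82 named genes reversed. DESeq2 called 2773 differences, 2276 of them shared, and the fit of all 24 libraries called 2039. Scaling set the direction split, with 1150 of 2343 higher (49.1%) for TMM within each line and 1223 of 2773 (44.1%) for DESeq2. Library totals moved 22 of the 28 list medians by more than their spread. Non-overlapping changes numbered 4484 with a pseudocount of 2 CPM. In simulation 24.8% of 1.5-fold differences were called, a rate that need not hold for these data, and sparsely detected host genes of EMT6 rest on few counts. The cause was not tested for any of these shifts.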

Other observations

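Gene groups not described above are given here, with examples chosen after their values were seen. Their counts stand beside 10.7% of all genes with a higher and 8.22% with a lower difference in 4T07. Of 54 ribosomal protein genes, 35 rose in p27K high cells of 4T07 and 23 in those of EMT6, with none falling (27.7% and 16.2% of all genes rose). The difference was higher in 4T07 for 4 (Rpl38 0.54, Rpl22 0.52, Rpl5 0.47 and Rpl7 0.40), but for 18 without 4T07 tumour 2 and for 1 under library totals or without any EMT6 tumour. Of 45 genes of the nuclear respiratory chain 21 fell in 4T07 and 25 in EMT6 (25.1% and 17.4% of all genes fell), and the difference was higher for 3, among them the complex I subunit Ndufs1 (0.38), or for 9 without 4T07 tumour 2 and none without EMT6 tumour 2. The list of immediate-early and heat-shock genes held both directions. The chaperone genes Hsph1 (0.63), Hsp90aa1 (0.61), Dnaja1 (0.60) and Hspa8 (0.43) were higher in 4T07, whereas the inducible Hspa1a (-2.31), which is nearly identical to Hspa1b and may share its reads, and the early-response genes Egr1 (-0.62), Egr2 (-0.64), Dusp5 (-0.59), Dusp6 (-0.47), Nr4a1 (-0.58) and Zfp36 (-0.39) were lower, making 4 higher and 7 lower of 34. The lower count was 4 without 4T07 tumour 1 or EMT6 tumour 4, and 11 without 4T07 tumour 2.

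Of 28 p53 targets 5 were higher in 4T07, among them Trp53inp1 (1.06), Rrm2b (0.81), which supplies nucleotides for DNA repair, and the death receptor gene Fas (0.55). The single lower one was Gtse1 (-2.19), a gene of G2 and S phase. The higher count was 9 without 4T07 tumour 2, and the list median of 0.16 became -0.01 under library totals. Interferon-stimulated genes had 2 higher, Ifit2 (0.70) and Ifih1 (0.41), and 2 lower, Irf1 (-0.47) and Tap1, of 35, but 8 higher without 4T07 tumour 2 or EMT6 tumour 0, and 1 or 2 without any other tumour. Dormancy genes had 4 higher, Tgfbr3, Thbs1 (0.29), Ndrg1 (0.77) and Bhlhe40 (0.57), and 1 lower, Col3a1 (-1.53), of 20, and the lower count ran from 0 to 3 without single tumours. Glucocorticoid-responsive genes had 3 lower, Lcn2 (-1.09), Tsc22d3 (-0.56) and Fkbp5 (-0.33), and 1 higher, Anxa1 (0.29), of 18. The lower count was 1 without 4T07 tumour 1 or EMT6 tumour 1 or 4, and 6 without 4T07 tumour 2 or under library totals. Of 20 lipid droplet genes 3 were lower, among them the fatty acid receptor Cd36 (-3.05), beside the macrophage sums given for other genes. YAP and TAZ targets had 2 higher, Ctgf and Crim1 (0.53), and 2 lower, F3 (-1.45) and Tead4 (-0.66), of 19, and epithelial genes 1 in each direction of 19. Of 11 endothelial genes 1 was lower.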
